A study of Mus musculus with 8 samples.

Results

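The neurotrophin genes examined here were Ngfr, Bdnf, Ntf3, Ntf5, Ntrk2, Ntrk3 and Sort1, which are 7 of the 55416 genes in the count table. Their rows were found by gene symbol, and the set was assembled around Ngfr, a receptor gene chosen by its genotype difference in these same counts. The values of the members between genotypes are therefore a description and carry no test.

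The data were mRNA-seq counts from the cerebral cortex of 4 mice heterozygous for the L192P substitution in Ago2 (genotype AGO2_L192P/+, here L192P) and 4 wildtype mice (WT). Ago2 encodes Argonaute 2, the protein that carries a miRNA to its target mRNAs, and the comparison asked which cortical mRNAs differ with the substitution. According to the methods of the study, the line was made by Cas9 knock-in of embryos from C57BL/6JUke mice, so every cell of the L192P animals carries 1 altered and 1 wild-type allele. Age and sex of the animals were not given in the sources used here.

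Neurotrophins are secreted growth factors that are made as longer precursors and cut to mature ligands. Mature ligands bind Trk receptor kinases (TrkB for BDNF and NT-4, TrkC for NT-3), which drive survival, growth and synaptic plasticity, while the p75 receptor encoded by Ngfr binds all of them and, together with sortilin, binds the uncut precursors. In the adult forebrain p75 is known above all from cholinergic neurons of the basal forebrain, whose axons reach the cortex, and BDNF from excitatory cortical neurons.

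The libraries held 20396357 to 43575900 counts, and 18627 genes entered the adjusted test. Replicate 1 of each genotype was nearly without Xist RNA (0.934 and 1.82 normalized counts) and the other 6 libraries had 5185 to 7257, so each genotype had 1 library of the Xist-low pattern. Markers of excitatory cortical neurons were present in all libraries, with a summed level of 36814 to 43644 normalized counts over 6 genes. Normalized counts are counts divided by the DESeq2 size factor of the library. A gene was called at a DESeq2 adjusted p under 0.05 over all tested genes, in a fit with genotype only that did not pair libraries by replicate number.

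Ngfr, the p75 neurotrophin receptor (ENSMUSG00000000120, GRCm39 chr11:95459638-95478561, minus strand), was the member around which the set was assembled. Its level was 152.3, 267.4, 176.4 and 233.6 normalized counts in L192P replicates 1 to 4 and 131.1, 91.5, 93.4 and 85.5 in WT replicates 1 to 4. All 4 L192P libraries lay above all 4 WT libraries, and the smallest gap was between the replicate 1 libraries, the Xist-low pair. The mean was 207.4 ± 52.6 in L192P (SD, n = 4) against 100.4 ± 20.8 in WT, or 2.06-fold (log2 fold change 1.04, SE 0.20, the standard error of the fit). The raw counts behind these levels ran from 73 to 235 reads. No exon of another annotated gene overlaps Ngfr.

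Within pairs of the same replicate number, Ngfr was higher in L192P in 4 of 4 pairs, by 0.21, 1.54, 0.91 and 1.44 on the log2 scale for numbers 1 to 4. Ngfr was called higher, the only member called of 7 tested. Over all tested genes 1.36% were called, 0.789% higher and 0.569% lower; because the rule used this contrast, nothing is read from the member count. Ngfr was called in 16 of 17 alternative settings and was not called by limma-voom, where 0.266% of 16887 genes were called and the log2 fold change was 1.01. The estimate ran from 0.89 without L192P replicate 2 to 1.32 in the 6 Xist-high libraries, a fit that called 3.46% of the 14437 genes it could adjust.

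**Figure D1:**
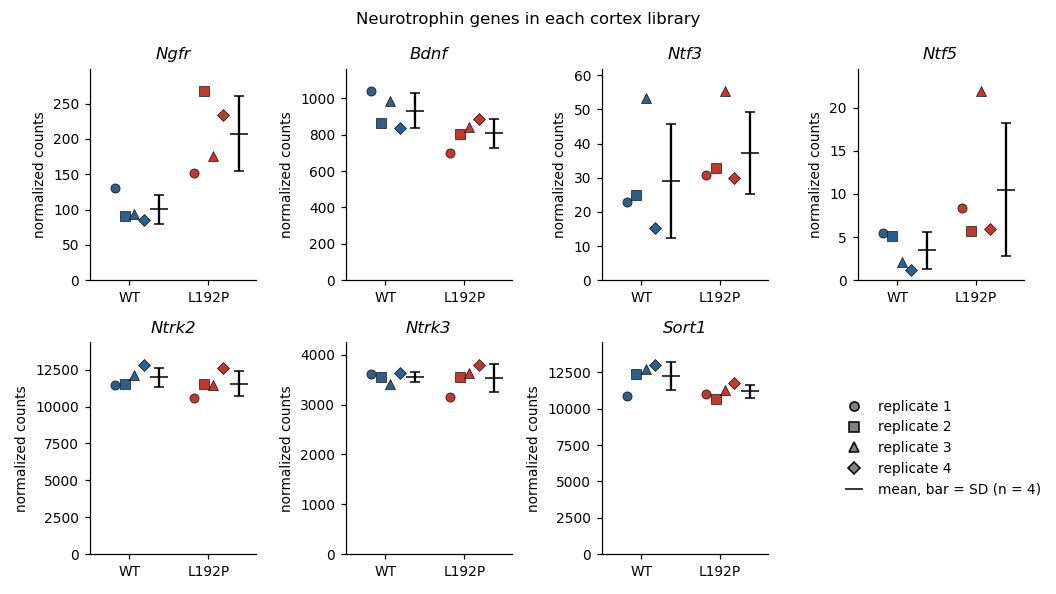
Normalized counts of the 7 members in each library, by genotype on the x axis, with 1 marker shape per replicate number and the mean with SD bars (n = 4). Ngfr is higher in all 4 L192P libraries (152.3 to 267.4) than in the 4 WT libraries (85.5 to 131.1), and Ntf3 is highest in replicate 3 of both genotypes.

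The mRNA of Ngfr has a 3′UTR of 1985 bases in its canonical transcript (GENCODE M39), and since Ago2 acts through miRNA pairing, the UTRs of the members were searched for sites of 11 miRNAs. They were abundant brain miRNAs, with the addition of miR-206-3p, known as a regulator of Bdnf, and miR-5121, which the study discusses. A site was an exact match to miRNA bases 2 to 8 (the seed), on the transcript strand. Ngfr had a single site for each of miR-128-3p, miR-16-5p and miR-206-3p. The mature miRNAs (RefSeq, GRCm38.p6) are shown with the seed in capitals, because these 3 are the miRNAs whose sites Ngfr shares with Bdnf.

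mmu-miR-128-3p: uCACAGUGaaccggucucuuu
mmu-miR-16-5p: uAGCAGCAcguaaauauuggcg
mmu-miR-206-3p: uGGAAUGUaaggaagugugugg

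The sites in Ngfr lie on the minus strand of chromosome 11 (GRCm39) and are printed along the mRNA with the match in capitals: CACTGTG at chr11:95461251-95461257, TGCTGCT at chr11:95461464-95461470 and ACATTCC at chr11:95461591-95461597.

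Ngfr, miR-128-3p site: catggactccaCACTGTGaactggagaac
Ngfr, miR-16-5p site: cacagccctgtTGCTGCTcctgaggggac
Ngfr, miR-206-3p site: tgtcctgtcccACATTCCgaccgctgatg

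These matches are common. Of 2336 UTRs of tested genes within 20% of the length of the Ngfr UTR, 29.0% hold CACTGTG, 28.8% hold TGCTGCT and 13.3% hold ACATTCC. A match is a sequence feature and was not tested as a bound site.

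Among the ligands, Bdnf (ENSMUSG00000048482, chr2:109505045-109557475, plus strand), which encodes brain-derived neurotrophic factor, had 699.7, 804.6, 839.4 and 887.6 normalized counts in L192P and 1038, 864.3, 983.1 and 838.2 in WT. The groups overlapped, with the lowest library in L192P and the highest in WT, both of them replicate 1. The means were 807.8 ± 79.7 and 930.9 ± 95.3 (SD, n = 4), giving a log2 fold change of -0.21 (SE 0.10). Pair by pair the log2 differences were -0.57, -0.10, -0.23 and 0.08, so the Xist-low pair had the largest and the pair numbered 4 the opposite sign. In the 6 Xist-high libraries the estimate was -0.09, and Bdnf was called in 0 of 17 alternatives. Ngfr and Bdnf thus had opposite signs between genotypes. After centring each genotype, their correlation over the 8 libraries was 0.70. For both genes replicate 1, the Xist-low library, was the lowest of L192P and the highest of WT. The correlation without that pair was not computed, so a shared movement in the other libraries is not shown.

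Bdnf carries the best known miR-206-3p sites of this family, and its 3′UTR of 2978 bases held 3 of them, against 1 in Ngfr and 0 in the other 5 members. They lie on the plus strand at chr2:109554710-109554716, chr2:109554904-109554910 and chr2:109555803-109555809 and are shown in that order to set their flanks beside the Ngfr site above.

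Bdnf, miR-206-3p site 1: aagtctgcattACATTCCtcgataatgtt
Bdnf, miR-206-3p site 2: ttggaaccaaaACATTCCgtttacatttt
Bdnf, miR-206-3p site 3: tggtacttgagACATTCCtaaaggaaggc

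Bdnf also held a site each for miR-128-3p, miR-16-5p and miR-26a-5p. The miR-26a-5p match TACTTGA, at UTR bases 1298 to 1304, ends 1 base before the last ACATTCC, at bases 1306 to 1312. Among 2189 UTRs of like length, 19.4% hold at least 1 ACATTCC. Of the 7 members, 5 held CACTGTG, the miR-128-3p match. In UTRs within 20% of the length of each, the share with this match was 29.0% for Ngfr, 39.1% for Bdnf, 50.1% for Sort1, 58.5% for Ntrk2 and 100% for Ntrk3 (8 UTRs), beside 24.5% of all 14897 searched UTRs. Sites of all 11 miRNAs together numbered 15 in Ntrk3, 6 in Ntrk2, 4 in Sort1, 4 in Ntf5 and 0 in Ntf3, whose UTRs span 16600, 5617, 4273, 1105 and 314 bases.

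Ntf3 (ENSMUSG00000049107, chr6:126078375-126143873, minus strand), the gene of NT-3, had 30.8, 33.0, 55.3 and 29.9 normalized counts in L192P and 22.8, 24.9, 53.2 and 15.2 in WT. The replicate 3 libraries were the highest of both genotypes by a wide margin, and the groups overlapped. The summed markers of dentate gyrus and CA neurons, a list described below, were also highest in those libraries. The sum was 8869 normalized counts in L192P replicate 3 and 5870 to 6824 in the rest of L192P. In WT it was 8429 in replicate 3 and 5891 to 6623 in the rest. A link was not tested. The estimated log2 fold change was 0.37 (SE 0.38), with a higher L192P value in 4 of 4 pairs, by 0.42, 0.40, 0.06 and 0.93. The estimate moved between 0.12 without L192P replicate 3 and 0.80 without WT replicate 3, and Ntf3 was called in 0 of the 16 alternatives in which it could be adjusted.

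Ntf5 (ENSMUSG00000074121, chr7:45063082-45066604, plus strand), the mouse gene of NT-4, was barely detected. It had 9, 5, 19 and 5 raw reads in L192P and 6, 9, 2 and 1 in WT, or 8.41, 5.69, 21.9 and 5.99 against 5.46, 5.08, 2.17 and 1.17 normalized counts. The groups did not overlap, but the lowest L192P and the highest WT library differed by less than 1 normalized count. Its log2 fold change was 1.53 (SE 0.72), it was not called, and without L192P replicate 3 it was 0.90. An exon of Ruvbl2, a gene with a mean of 706.1 normalized counts, overlaps Ntf5 on the opposite strand, and the strand setting of the counting was not given in the sources used here. Ngfr and Ntf5 were the 2 members whose groups did not overlap, and 5.97% of all tested genes had groups that did not overlap.

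Ntrk2, the gene of the BDNF receptor TrkB (ENSMUSG00000055254, chr13:58954176-59281784, plus strand), had 10585, 11551, 11462 and 12647 normalized counts in L192P and 11441, 11560, 12125 and 12807 in WT. The groups overlapped nearly throughout, and replicate 4 was the highest and replicate 1 the lowest library of both genotypes. The log2 fold change was -0.05 (SE 0.07). Gene counts sum the kinase-bearing and the truncated TrkB isoforms, so a shift between them would not be seen.

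Ntrk3, the gene of the NT-3 receptor TrkC (ENSMUSG00000059146, chr7:77825707-78387760, minus strand), had 3144, 3560, 3640 and 3792 normalized counts in L192P and 3620, 3558, 3417 and 3637 in WT. L192P held both the lowest and the highest library. Its log2 fold change of -0.01 (SE 0.07) was the smallest of the set, and its sign turned in 3 of 17 alternatives, to 0.05 in the Xist-high libraries. For both Trk receptors the standard error sets the precision, and differences well above a few percent could also go uncalled. Pvalb, an interneuron gene with a like standard error (0.07), was not called at a fold of 0.86 (DESeq2 adjusted p = 0.121).

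Sort1 (ENSMUSG00000068747, chr3:108191285-108268842, plus strand) encodes sortilin, the VPS10 receptor that pairs with p75 to bind proneurotrophins and that also steers BDNF into secretory vesicles. Its levels were 11039, 10679, 11266 and 11793 normalized counts in L192P and 10861, 12361, 12729 and 12992 in WT. WT replicate 1 lay among the L192P libraries, and the other 3 WT libraries lay above all of L192P. The fitted log2 fold change was -0.13 (SE 0.07), and the pairs gave 0.02, -0.21, -0.18 and -0.14. Sort1 was not called with all libraries, and was called lower without WT replicate 1 (-0.18) and in the 6 Xist-high libraries (-0.18).

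**Figure D2:**
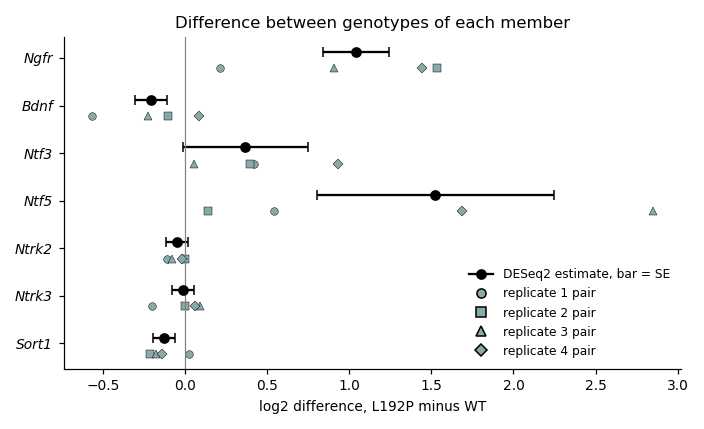
Log2 difference of L192P minus WT on the x axis for each member, as the DESeq2 estimate with its standard error (black) and as the difference within each of the 4 replicate-number pairs (grey-green, 1 shape per number). Ngfr sits at 1.04, with pairs from 0.21 to 1.54, while Ntrk2, Ntrk3 and Sort1 lie between -0.21 and 0.09 in every pair.

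Over the 7 members, 3 estimates were above 0 and 4 below, with a median of -0.01 against 0.00 over all tested genes. The estimates of Ngfr (1.04) and Sort1 (-0.13) differed in sign, as did those of the ligands Bdnf (-0.21), Ntf3 (0.37) and Ntf5 (1.53). Only Ngfr of these was called, so nothing is read from the signs of the others.

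Levels of different genes were compared as normalized counts per kilobase of exon. In WT the order was Sort1 (1491 ± 116.0), Ntrk2 (400.5 ± 20.9), Bdnf (122.7 ± 12.6), Ntrk3 (113.5 ± 3.18), Ngfr (29.1 ± 6.02), Ntf3 (16.7 ± 9.59) and Ntf5 (1.13 ± 0.694; SD, n = 4). Bdnf and Ntrk3 had overlapping libraries (110.4 to 136.8 against 109.0 to 116.1), and so had Ngfr and Ntf3 (24.8 to 38.0 against 8.76 to 30.6). The other neighbours in this order did not overlap. The order was the same with the length of the canonical transcript.

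Relative to Ntrk2 per kilobase, Ngfr was 12.5%, 20.1%, 13.3% and 16.0% in L192P replicates 1 to 4 and 9.94%, 6.86%, 6.68% and 5.78% in WT replicates 1 to 4. The p75 transcript was thus below the TrkB transcript per kilobase in every library of both genotypes. These percentages depend on the length used, here all annotated exons, which span 29922 bases in Ntrk2 against 9050 in its canonical transcript. Per kilobase of canonical transcript, Ngfr averaged 29.1 and Ntrk2 1324 in WT. In L192P the corresponding means were 60.2 and 1277, so the percentages would be lower.

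The rest of the pathway was described with 6 lists, chosen with earlier results of these data known. They held 103 genes, of which 101 were tested. DESeq2 called 5 of them (4.95%, beside 1.36% of all tested genes), Hap1 higher and Arhgdia, Usf2, Nptx2 and Spry2 lower. With the replicate number as a block, which called 533 of the 12536 genes it could adjust (4.25%), 14 of the pathway genes were called, 4 higher and 10 lower, and 13 were called in the Xist-high libraries. edgeR and limma-voom, which called 0.314% and 0.266% of their genes, each called Hap1 alone. Leaving out 1 library gave between 1 gene (Hap1, without L192P replicate 3 or WT replicate 2, 3 or 4) and 12 genes (without WT replicate 1), with 3 and 2 genes called without L192P replicates 1 and 4.

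Of the list led by the VPS10 sorting receptors, 0 of 6 genes were called, 1 with an unadjusted p under 0.05, and edgeR and limma-voom also called 0. The most abundant gene of the list, Sorl1, a sorting receptor for the amyloid precursor protein, had a log2 fold change of -0.11 (DESeq2 adjusted p = 0.805).

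Of 19 co-receptors and interactors of p75, 1 was called. Arhgdia encodes RhoGDI, the inhibitor that p75 pulls off RhoA. It had 6660, 7716, 7264 and 7022 normalized counts in L192P and 7860, 8635, 8647 and 8450 in WT, without overlap, and fell by 0.23 on the log2 scale (SE 0.06, DESeq2 adjusted p = 0.0233). The call was lost in 8 of 17 alternatives, where the adjusted p reached 0.182. Rtn4, the gene of the myelin inhibitor Nogo and the most abundant of the list, had a log2 fold change of -0.00 (DESeq2 adjusted p = 0.999), and Lingo1 and Rtn4r, partners of p75 in the Nogo receptor complex, had -0.08 each (DESeq2 adjusted p = 0.754 and 0.883). The replicate block also called Bex1 and Maged1, both p75 intracellular partners, as higher.

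None of the 34 Trk adaptors and kinases was called by DESeq2, edgeR or limma-voom (0 genes, with 8 at an unadjusted p under 0.05 in DESeq2), and 3 were called with the replicate block, among them Sos1 higher and Akt2 lower. The list median was 0.02, and the most abundant gene, Camk2a, had -0.15 (DESeq2 adjusted p = 0.765).

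Of 16 genes for proneurotrophin processing and sorting, 14 were tested and 1 was called. Hap1 encodes huntingtin-associated protein 1, which links vesicles, including those with proBDNF, to motors. It had 5988, 5600, 5596 and 5520 normalized counts in L192P and 4228, 3079, 2926 and 2613 in WT, without overlap, and rose by 0.82 on the log2 scale (SE 0.12, DESeq2 adjusted p = 5.0e-09). It was called in 17 of 17 alternatives. Cpe, the carboxypeptidase that acts as a sorting receptor for proBDNF and the most abundant of the list, had -0.04 (DESeq2 adjusted p = 0.964). The replicate block added Cadps2, a factor for BDNF release, as lower.

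Of 12 regulators of Bdnf transcription, Usf2, a factor that binds a Bdnf promoter, was called lower. It averaged 1322 ± 147.3 normalized counts in L192P against 1624 ± 100.8 in WT (SD, n = 4; log2 fold change -0.30, SE 0.09, DESeq2 adjusted p = 0.0457). That call was lost in 10 of 17 alternatives, with adjusted p up to 0.257. Mef2c, the most abundant regulator, had -0.09 (DESeq2 adjusted p = 0.843).

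The BDNF-responsive genes were the pathway list with estimates on a single side: 16 of 16 were below 0, with a median of -0.29 and a range of -0.47 to -0.04, and 2 were called lower. These genes are driven by neuronal activity as well as by BDNF. Nptx2, a synaptic pentraxin, had 1226, 1430, 1170 and 1407 normalized counts in L192P and 1645, 1638, 1603 and 1566 in WT. Its groups did not overlap, and it fell by 0.30 on the log2 scale (SE 0.08, DESeq2 adjusted p = 0.0145), a call lost in 8 of 17 alternatives with adjusted p up to 0.123. Spry2, a feedback inhibitor of receptor tyrosine kinases, fell by 0.28 (SE 0.08, DESeq2 adjusted p = 0.0451), with overlapping groups, and lost its call in 10 of 17 alternatives with adjusted p up to 0.258.

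Npy, neuropeptide Y of interneurons, had -0.37 (SE 0.11) and lay just past the threshold (DESeq2 adjusted p = 0.0519). Egr1, an immediate early gene and the most abundant of the list, had -0.31 (SE 0.12, DESeq2 adjusted p = 0.269). With the replicate block 5 of the 16 were called, all lower (Vgf, Homer1, Nptx2, Npy and Spry2), and in the Xist-high libraries 5, also lower (Egr1, Dusp6, Homer1, Npy and Spry2). The summed level of the list was 33763 to 38422 normalized counts in L192P and 36678 to 48409 in WT, so the groups overlapped at WT replicate 1.

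**Figure D3:**
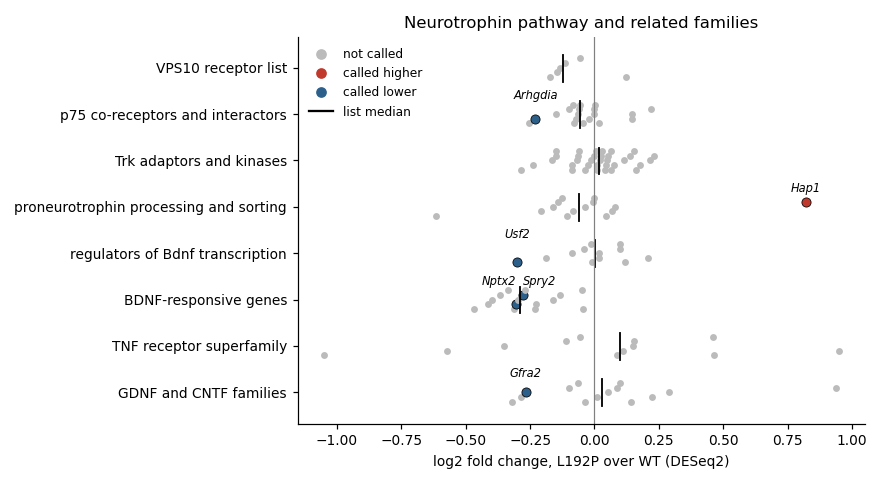
DESeq2 log2 fold change of L192P over WT on the x axis for each tested gene of the 6 pathway and 2 family lists (rows), with called genes coloured and named and a black line at the list median. All 16 BDNF-responsive genes lie left of 0, and Hap1 at 0.82 is the gene called higher.

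The families nearest to the neurotrophin receptors were given the same way. Of 28 genes in 2 lists, 26 were tested and 1 was called (3.85%, beside 1.36% of all tested genes). Among 12 members of the TNF receptor superfamily, to which p75 belongs, 0 were called by DESeq2, edgeR or limma-voom, 1 had an unadjusted p under 0.05, and Tnfrsf21, the most abundant and the gene of death receptor 6, had a log2 fold change of -0.06 (DESeq2 adjusted p = 0.926). In the GDNF and CNTF families, Gfra2, the neurturin co-receptor, had 1839, 1747, 1568 and 1815 normalized counts in L192P and 2029, 2094, 2103 and 2165 in WT. It fell by 0.27 on the log2 scale (SE 0.07, DESeq2 adjusted p = 0.0111), a call lost in 7 of 17 alternatives with adjusted p up to 0.115. With the replicate block 2 family genes were called, Gfra2 lower and Ret, the kinase subunit of the GDNF receptor, higher. Without the block Ret was at 0.94 (SE 0.41, DESeq2 adjusted p = 0.371), with 409.3 normalized counts for L192P replicate 3 and 133.0 to 167.3 for the rest of that genotype. Ncam1, the most abundant of that list, had 0.09 (DESeq2 adjusted p = 0.672).

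Since p75 is known from a few cell types, markers of the cells that a cortex sample could hold were set beside Ngfr. Of 77 markers, 74 were tested and 6 were called (8.11%, beside 1.36% of all tested genes). The marker lists were chosen with earlier results of these data known. Nothing is therefore read from their counts of calls or of signs, and the adjusted p-values of their genes are descriptive. In bulk tissue, a difference in the number of cells of a type and a difference in RNA per cell cannot be told apart. Markers of basal forebrain cholinergic neurons had 7 of 7 estimates above 0, with a median of 0.50 and a summed level of 892.4 to 1518 normalized counts in L192P and 736.6 to 1002 in WT. None of the 7 was under 10 normalized counts on average. Zic4, a transcription factor gene of the septum and basal forebrain, was called. It had 142.0, 202.6, 136.1 and 170.1 normalized counts in L192P and 118.4, 87.6, 86.9 and 82.0 in WT, without overlap, and rose by 0.79 on the log2 scale (SE 0.18, DESeq2 adjusted p = 0.00345). The call was lost with edgeR, limma-voom and without L192P replicate 2, with adjusted p up to 0.0897.

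The other cholinergic markers were not called. Gbx1 and Lhx8, developmental factors of these neurons, had log2 fold changes of 1.02 and 0.91 (DESeq2 adjusted p = 0.0675 and 0.0697), and Slc5a7, the choline transporter and the most abundant, had 0.50 (DESeq2 adjusted p = 0.112). Chat, the acetylcholine-synthesizing enzyme, had 177.5, 258.3, 148.7 and 242.0 in L192P and 168.5, 124.3, 187.9 and 152.2 in WT, with overlap (0.39, DESeq2 adjusted p = 0.477). L192P replicates 2 and 4, the highest for Ngfr, were also the highest for Chat. L192P replicate 3 had a list sum of 892.4, below the 1002 of WT replicate 1, although its Ngfr level was above every WT library. In the Xist-high libraries, Slc5a7, Lhx8, Gbx1 and Zic4 were called higher, and with the replicate block Slc5a7 and Zic4. The correlation of the list sum with Ngfr over the 8 libraries was 0.87, and 0.71 after centring each genotype. Whether these markers account for the Ngfr difference was not tested.

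Markers of meningeal and perivascular fibroblasts, in which p75 is also known, had 8 of 8 estimates above 0 (median 0.61), summing to 1004 to 1805 normalized counts in L192P and 852.2 to 1193 in WT. Slc6a13, a transporter of leptomeningeal cells, was called higher (log2 fold change 0.81, SE 0.22, DESeq2 adjusted p = 0.0229), with overlapping groups, and lost its call in 6 of 17 alternatives with adjusted p up to 0.284. Col1a2, a fibrillar collagen gene and the most abundant, had 0.58 (DESeq2 adjusted p = 0.115). With the replicate block Col1a2 and Slc6a13 were called higher, and in the Xist-high libraries Col1a2, Lum, Slc6a13 and Ogn. The correlation of the sum with Ngfr was 0.78, and 0.51 after centring; L192P replicate 3 had a fibroblast sum of 1785, close to the 1805 of replicate 2, but a lower Ngfr level. The part of these cells in the Ngfr difference was not tested.

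Schwann and olfactory ensheathing cells, another known source of p75, gave 0 calls among 5 tested of 7 markers in DESeq2, edgeR and limma-voom, and 0 had an unadjusted p under 0.05 in DESeq2. Of the defining markers, Pmp2 was at 0 in all libraries, Foxd3 was under 10 normalized counts on average, and the list sum was mostly Sox10, which oligodendrocytes also express. The sum ran from 1710 to 2133 in L192P and 1526 to 2263 in WT, and its correlation with Ngfr was -0.26, and -0.24 after centring.

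**Figure D4:**
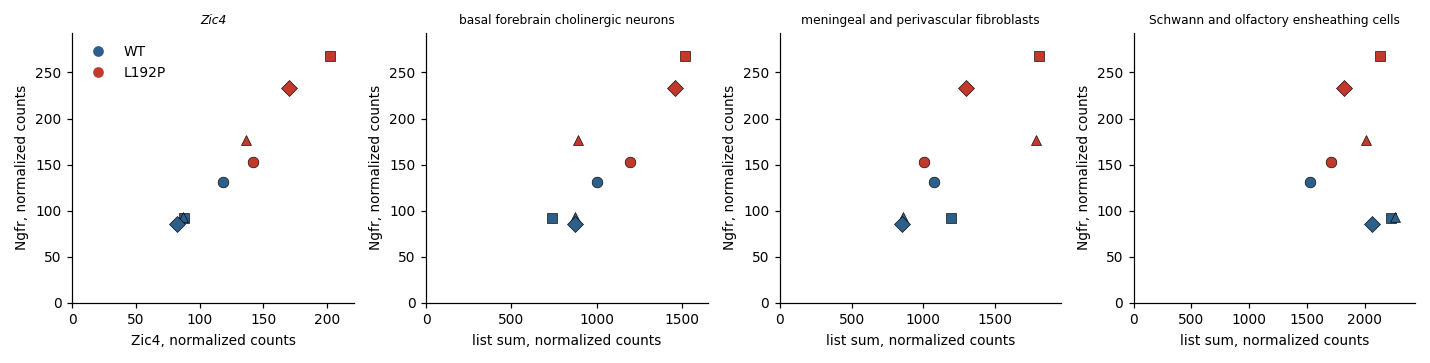
Ngfr (y axis) against Zic4 and the summed markers of 3 cell types (x axes), all in normalized counts, with 1 point per library, red for L192P and blue for WT, and the marker shapes of the replicate numbers as in the plot of member levels. Ngfr and Zic4 rank L192P replicates 2 and 4 highest, and the Schwann and ensheathing cell sum spans like ranges in both genotypes.

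The other neuronal lists moved in different directions. Of the GABAergic interneuron markers, Gad2, a GABA-synthesizing enzyme, was called higher (log2 fold change 0.34, SE 0.09, DESeq2 adjusted p = 0.0235), a call lost in 7 of 17 alternatives with adjusted p up to 0.155, while Gad1, the most abundant, had 0.06 (DESeq2 adjusted p = 0.885). Pvalb, the calcium buffer of fast-spiking interneurons, had -0.22 (DESeq2 adjusted p = 0.121) and was called lower with the replicate block. The sum of this list, 24817 to 27559 normalized counts in L192P and 22563 to 25386 in WT, had a correlation of 0.89 with Ngfr, and 0.82 after centring. Excitatory neuron markers had 6 of 6 estimates below 0 and 0 calls in DESeq2, edgeR and limma-voom (3 with an unadjusted p under 0.05, and 3 called lower with the replicate block). Their sum was 36814 to 41557 in L192P and 42246 to 43644 in WT, without overlap, and Slc17a7, the vesicular glutamate transporter, had -0.13 (DESeq2 adjusted p = 0.292). This sum had a correlation of -0.87 with Ngfr, of about the size seen for the cholinergic and GABAergic lists but negative, and -0.51 after centring.

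Layer 6b and subplate markers included 2 called lower, Nxph3 (-0.39, SE 0.10, DESeq2 adjusted p = 0.0109) and Cplx3 (-0.43, SE 0.12, DESeq2 adjusted p = 0.0382). Nxph3 lost its call in 5 and Cplx3 in 11 of 17 alternatives, with adjusted p up to 0.110 and 0.203. Ccn2, the most abundant uncalled marker of that list, had -0.40 (DESeq2 adjusted p = 0.124). The layer 6b and subplate sum had a correlation of -0.49 with Ngfr, and 0.63 after centring. Striatal projection neuron markers had 6 of 6 estimates below 0, and 1 gene was called lower. Ppp1r1b, the gene of DARPP-32 and the most abundant of that list, had -0.21 (DESeq2 adjusted p = 0.316). Their sum was 20028 to 25217 in L192P and 25694 to 30893 in WT, with a correlation of -0.62 with Ngfr, and 0.10 after centring. The 8 markers of the dentate gyrus and CA neurons had a median of 0.01 and 0 calls in DESeq2, edgeR and limma-voom, with 0 at an unadjusted p under 0.05 in DESeq2, and Wfs1 had 0.14 (DESeq2 adjusted p = 0.710).

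Of the glial and vascular lists, 0 genes were called by DESeq2, edgeR or limma-voom. Astrocyte markers had a median of -0.07 (Slc1a2 -0.12, DESeq2 adjusted p = 0.939), oligodendrocyte markers -0.12 (Mbp -0.15, DESeq2 adjusted p = 0.959) and mural cell markers 0.05 (Rgs5 0.09, DESeq2 adjusted p = 0.983), each with 0 genes at an unadjusted p under 0.05. Microglia markers had 5 of 5 estimates above 0 (median 0.26, 2 at an unadjusted p under 0.05), with Csf1r at 0.22 (DESeq2 adjusted p = 0.857) and sums of 4102 to 7184 in L192P and 4274 to 5308 in WT. Their correlations with Ngfr over the libraries were -0.12, -0.26, 0.08 and 0.48 in that order.

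The genes most like Ngfr were searched among 17145 genes with a mean of at least 10 normalized counts, by the Pearson correlation of log2 values over the 8 libraries. Zic4 came highest with 0.99, followed by Pde3b (0.97), Tacr3 (0.97), Efcab1 (0.96) and Gk (0.96). Zic4 was in the cholinergic marker list, which was chosen with earlier results of these data known, so this is not independent support. Tacr3, the neurokinin 3 receptor, had 96.2, 134.3, 117.6 and 121.0 normalized counts in L192P and 103.8, 82.5, 83.6 and 79.6 in WT, with WT replicate 1 among the L192P libraries as its highest WT value. The genotype difference itself is part of these correlations. After centring each genotype, the genes most like Ngfr were Praf2 (0.99), Mageh1 (0.97), Fbxo5 (0.97), Fndc9 (0.96) and Ddx28 (0.96), so the lists had 0 genes in common. Praf2 and Mageh1 had fitted log2 fold changes of -0.14 and -0.10, opposite in sign to that of Ngfr. Both sets are the highest of 17145 correlations over 8 libraries, so values this high can also arise by chance. For each gene found after centring, as for Ngfr, replicate 1 was the lowest of L192P and the highest of WT. No correlation with Ngfr, for genes or for marker sums, was computed without that pair. All of these values come from the same 8 libraries and share their depth and scaling.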

How the data were processed

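RNA from the cerebral cortex of 8 mice was made into stranded mRNA libraries, with a TruSeq kit per the labels (the methods of the study name the Illumina Stranded mRNA Prep kit). The authors aligned reads to GRCm39 with STAR (2.7.9a per the submitters' processing notes), counted them per gene locus with featureCounts (1.5.1) and deposited raw counts of each library. The strand setting and the Ensembl release were not given in the sources used here. They also deposited a normalized signal table, which equalled counts over DESeq2 size factors computed here within 3.5e-10.

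Counts were fitted with DESeq2 1.42.0 in R 4.3.3 (genotype only; Benjamini-Hochberg adjusted p under 0.05; no fold minimum; unshrunken estimates). Alternatives were edgeR 4.0.16, limma-voom 3.58.1, size factors from TMM or total counts, a minimum of 10 counts in 4 libraries, no independent filtering, no Cook filter, the replicate block, the 6 Xist-high libraries, and leaving out each library. The programs were also run on simulated counts. Library totals of 20396357 to 43575900 make low genes such as Ntf5 coarse.

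Replicates of a genotype differed by more than sampling noise (chi-square per degree of freedom 5.52 to 22.6). Labels do not say whether they are separate litters or days, so p-values measure the spread between these samples. Deviations from the group mean over 13422 genes correlated between same-numbered libraries at 0.63, 0.38, 0.23 and 0.33 (other pairs -0.38 to 0.14). Centring makes the deviations of a gene cancel within a genotype, which lowers the other pairs where same-numbered pairs are positive. The numbers were used to pair libraries in the pair differences and the replicate block. The DESeq2 fit behind the calls and adjusted p-values had genotype only and ignored this pairing.

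Members and gene lists were chosen with earlier results of these data known. The text names all members, of each list the called genes (at most 5) and the most abundant uncalled gene, and the 5 genes most like Ngfr; genes called only under an alternative, Gbx1, Lhx8, Chat, Pvalb, Lingo1, Rtn4r and Npy were named after their values were seen, and some genes of the lists are not reported here. Pair differences use log2(normalized count + 1). Gene positions, exon overlaps and UTRs come from GENCODE M39, in which 98.8% of identifiers were found; of the 11 miRNAs all had a RefSeq entry. Protein sequences were not used here.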

Additional observations from a re-analysis of the deposited data

Results flagged for a closer look

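Of 54 groups of 4 libraries screened (the 7 members and the sums of the 20 gene lists, each genotype apart), 7 held a library set apart from the other 3 by more than Dixon's 95% critical value, where chance gives 2.7. In L192P replicate 3, Ntf3 stood at 55.3 normalized counts, where the other L192P libraries had 29.9 to 33.0, and Ntf5 at 21.9, where they had 5.69 to 8.41. The summed astrocyte markers were 33932 in L192P replicate 1 against 49228 to 52247. In WT replicate 1 the Trk adaptors and kinases summed to 143450 against 155997 to 157696, the oligodendrocyte markers summed to 36030 against 61711 to 62551 and the microglia markers to 4274 against 5170 to 5308. The striatal markers summed to 20028 in L192P replicate 3 against 24532 to 25217. For Ngfr in WT, the distance of replicate 1 (131.1 normalized counts) to the nearest library was 0.826 of the range of the group, just short of the critical value; in L192P the corresponding share was 0.294, for replicate 2.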

How the results depend on the processing

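Over all genes, 253 were called, against 53 with edgeR, 45 with limma-voom, 533 with the replicate block, 500 in the Xist-high libraries and 112 to 496 when 1 library was left out. Among the members, 1 was called, against 0 with limma-voom, 2 in the Xist-high libraries and 1 to 2 when 1 library was left out, the added gene being Sort1. Of the pathway genes, 5 were called, against 1 with edgeR, 1 with limma-voom, 3 with total-count size factors, 3 without independent filtering, 14 with the replicate block, 13 in the Xist-high libraries and 1 to 12 when 1 library was left out. Of the family genes, 1 was called, against 0 with edgeR, 0 with limma-voom, 2 with the replicate block and 0 to 1 when 1 library was left out (0 without either of L192P replicates 2 and 3 or any of WT replicates 2, 3 and 4). The cause of these differences was not tested. The Ngfr estimate stayed between 0.89 and 1.32 in all 17 alternatives, and the replicate block changed the call of no member. Scaling by total counts moved the median of all tested genes from 0.00 to 0.03. Ntf5 was dropped by edgeR, limma-voom and the low-count filter, so no value was had there; at 1 to 19 reads a library it limits any statement. With 4 libraries a genotype, a missed threshold does not show equal levels.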
